A study of Homo sapiens with 4 samples.

Results

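The unfolded protein response sensors and transducers are 10 genes that detect unfolded protein in the endoplasmic reticulum (ER) or pass the signal on: ERN1, XBP1, ATF6, ATF6B, EIF2AK3, MBTPS1, MBTPS2, CREB3, CREB3L1 and CREB3L2. They were chosen by name from textbook knowledge of the response and matched by symbol to Affymetrix transcript clusters (gene-level probe sets) annotated with exactly 1 gene. All 10 were found, among 22411 genes. They were measured in HCT116, an established human colon cancer cell line of epithelial origin. The controls were HCT116 cells given the empty vector (replicates 1 and 2), and the treated samples were cells given plasmids that express PRSS8 (replicates 1 and 2). PRSS8 encodes prostasin, a membrane-anchored serine protease. Transfection was transient, so the cultures may have mixed transfected and untransfected cells, and a change in fewer cells cannot be told apart from a smaller change in each cell. Neither the share of transfected cells nor the time to collection is stated in the labels. The labels call the replicates biological without naming separate cultures, so p-values measure only the spread between these arrays.

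Levels are the deposited log2 values, given for replicate 1 first and replicate 2 second, and each difference is a PRSS8 level minus a control level on that scale. The transfected gene, PRSS8, was at 10.45 and 11.18 in controls and at 18.55 and 18.07 after overexpression. Arrays with the same replicate number were closer to each other than arrays of the same group: across genes Pearson's r was 0.996 and 0.989 within the numbers, against 0.930 between the controls and 0.934 between the PRSS8 arrays. Differences are therefore given within replicate 1 and within replicate 2. The 6 epithelial markers spanned 7.92 to 15.05, and the 13 measured markers of fibroblasts, leukocytes and endothelium spanned 3.12 to 5.14. The top of that range was the fibroblast marker DCN on control replicate 2, and every other value was 4.03 or lower. Summed over those 13 markers, the levels were 45.13 and 49.15 on the control arrays and 45.18 and 47.53 on the PRSS8 arrays.

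Cells answer unfolded protein in the ER through 3 sensors in the ER membrane. IRE1 (encoded by ERN1) is a kinase and nuclease that splices the mRNA of XBP1, which then yields an active transcription factor. ATF6 and its relative ATF6B travel to the Golgi, where the site-1 protease (MBTPS1) and the site-2 protease (MBTPS2) release their transcription factor domain. PERK (EIF2AK3) phosphorylates the initiation factor eIF2alpha, which lowers translation in general and favours ATF4. CREB3, CREB3L1 and CREB3L2 are membrane-bound factors released by the same Golgi proteases. The arrays measured total mRNA of each gene. Splicing of XBP1, cleavage of ATF6 or phosphorylation of PERK were not measured.

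The start-site windows of XBP1 and of the 3 sensors are shown because XBP1 is the textbook case of a transducer whose own transcription is driven by the response, through an ER stress response element. That element was searched as CCAAT, then 9 bases of any kind, then CCACG, on both strands. CCAAT is the NF-Y box and CCACG the part read by ATF6. Each window runs from 250 bases before to 50 bases after the start site, 5′ to 3′ on the gene's strand, from RefSeq (GRCh38.p14). Capitals mark every CCAAT or CCACG, which reads ATTGG or CGTGG when it lies on the other strand.
XBP1, chr22:28800520-28800819, minus strand: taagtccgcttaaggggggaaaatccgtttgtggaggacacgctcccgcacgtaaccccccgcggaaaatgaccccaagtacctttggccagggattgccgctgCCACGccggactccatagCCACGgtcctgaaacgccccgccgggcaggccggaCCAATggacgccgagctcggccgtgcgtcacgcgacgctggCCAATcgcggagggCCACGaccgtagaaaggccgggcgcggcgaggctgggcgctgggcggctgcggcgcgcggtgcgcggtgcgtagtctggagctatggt
ERN1, chr17:64130095-64130394, minus strand: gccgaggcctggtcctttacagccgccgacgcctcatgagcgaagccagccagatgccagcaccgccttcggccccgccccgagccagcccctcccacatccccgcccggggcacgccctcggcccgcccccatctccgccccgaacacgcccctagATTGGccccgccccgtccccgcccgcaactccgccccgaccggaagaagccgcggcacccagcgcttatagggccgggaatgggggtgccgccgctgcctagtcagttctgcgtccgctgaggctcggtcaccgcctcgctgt
ATF6, chr1:161766070-161766369, plus strand: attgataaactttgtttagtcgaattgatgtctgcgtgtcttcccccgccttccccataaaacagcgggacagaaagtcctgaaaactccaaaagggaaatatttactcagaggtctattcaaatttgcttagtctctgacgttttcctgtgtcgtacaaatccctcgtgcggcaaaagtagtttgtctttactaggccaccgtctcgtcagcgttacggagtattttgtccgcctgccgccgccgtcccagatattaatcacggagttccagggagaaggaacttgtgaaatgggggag
EIF2AK3, chr2:88627415-88627714, minus strand: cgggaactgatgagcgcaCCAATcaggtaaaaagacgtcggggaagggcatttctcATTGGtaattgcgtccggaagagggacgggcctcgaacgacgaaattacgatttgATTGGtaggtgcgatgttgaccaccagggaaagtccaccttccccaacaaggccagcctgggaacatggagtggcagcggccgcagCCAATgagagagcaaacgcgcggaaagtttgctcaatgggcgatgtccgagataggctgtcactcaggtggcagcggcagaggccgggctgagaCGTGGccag

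In the XBP1 window, 1 pair of boxes has the spacing of the full element, from -52 to -34 relative to the start site. Of the 35116 RefSeq windows of this length, 0.0769% held the full element (27 windows), while 38.1% held CCACG and 34.6% held CCAAT at any spacing. Among the 10 genes, XBP1 alone held the full element, and all 10 had a window. EIF2AK3 had 4 CCAAT boxes and 1 CCACG box, but none paired at that spacing. ERN1 had 1 CCAAT box, and ATF6 had neither. XBP1 had a further annotated start site whose window held 2 CCACG boxes and no CCAAT. A match is a description of the letters, not evidence of binding, and a window without one says nothing about bases outside it.

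On the deposited scale XBP1 was the member in which both PRSS8 arrays stood above both control arrays. Its levels were 6.66 and 7.05 on the control arrays and 7.33 and 7.99 on the PRSS8 arrays. The groups were 0.29 apart at their closest. The difference was 0.68 within replicate 1 (1.60-fold) and 0.94 within replicate 2 (1.92-fold), with a mean of 0.81 (SE 0.53, n = 2 arrays per group). This SE, like each SE below, comes from the limma fit without pairing, so it holds the gap between replicate numbers. With the replicate number as a block the SE of XBP1 was 0.19, but no label ties the numbers to a shared day or culture. The limma test across all genes gave XBP1 an adjusted p of 1.0, and the exact two-sided permutation test gave p = 0.33, the smallest that 2 arrays against 2 allow. After quantile normalization the differences were 0.66 and 0.75, but the groups overlapped, with control replicate 2 at 7.38 and PRSS8 replicate 1 at 7.13. The count of members with both PRSS8 arrays above both controls was thus 1 of 10, where 5.53% of all genes and 6.06% of genes above the median level stood that way. After quantile normalization it was again 1 of 10, but the member was ERN1 and the share of all genes 8.88%. In 0 members did both PRSS8 arrays stand below both controls, against 5.56% of all genes (1 member after quantile normalization, MBTPS1, against 6.84%).

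ERN1 encodes the IRE1 sensor that acts on XBP1 mRNA, and its differences were smaller. It stood at 5.81 and 5.46 on the control arrays and at 5.79 and 5.75 on the PRSS8 arrays, and the groups overlapped. After quantile normalization they were separate, with controls at 5.71 and 5.52 and PRSS8 arrays at 5.74 and 5.82. The differences were -0.02 within replicate 1 and 0.29 within replicate 2, with a mean of 0.13 (SE 0.29). The difference of XBP1 exceeded that of ERN1 by 0.69 within replicate 1 and by 0.66 within replicate 2. The gap between the 2 genes of the IRE1 arm was not tested. Within replicate 1 the small difference of ERN1 turned positive after quantile normalization (0.03) and cyclic loess (0.02).

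EIF2AK3, the PERK gene and the sole member of its arm, was higher within both replicate numbers. Its levels were 6.50 and 5.21 on the control arrays and 7.15 and 5.58 on the PRSS8 arrays. The replicate 1 arrays stood above the replicate 2 arrays in both groups, so the groups overlapped. PRSS8 minus control was 0.65 within replicate 1 (1.57-fold) and 0.37 within replicate 2 (1.29-fold). The mean was 0.51 (SE 0.73), against a gap of 1.29 between the control arrays. Set beside XBP1, the difference of EIF2AK3 was 0.03 smaller within replicate 1 and 0.57 smaller within replicate 2.

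**Figure D1:**
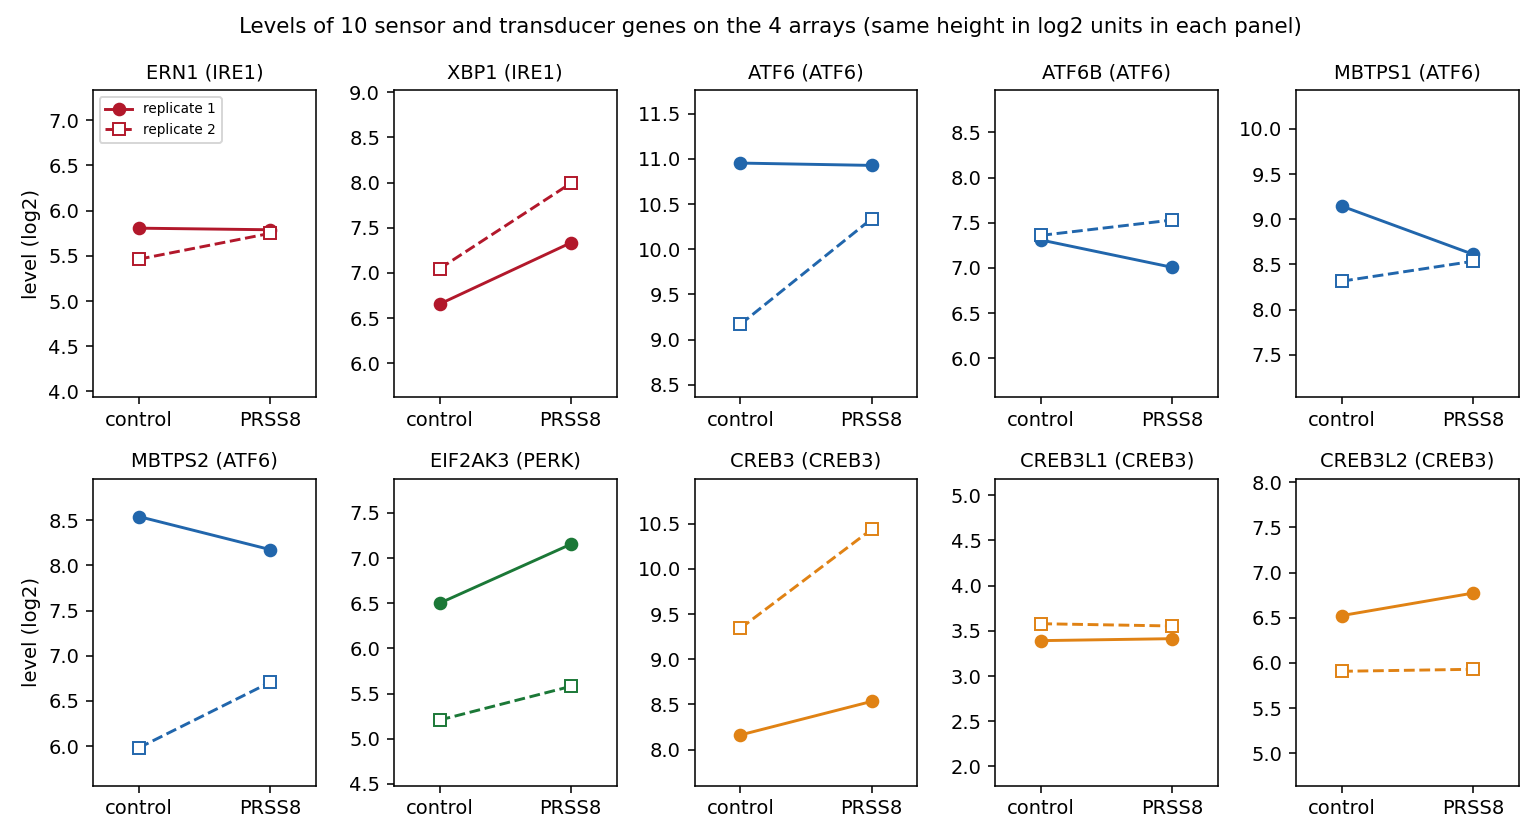
Levels (log2, y axis) of the 10 genes on control and PRSS8 arrays, with a line for each replicate number (filled circles replicate 1, open squares replicate 2) and panel titles giving the gene and its arm or family; every panel has the same height in log2 units. XBP1 is the panel in which both right-hand points lie above both left-hand points (after quantile normalization this held for ERN1 and not for XBP1), and MBTPS2 and EIF2AK3 show the replicate 1 arrays above the replicate 2 arrays.

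All 4 genes of the ATF6 arm were lower with PRSS8 within replicate 1 and higher within replicate 2 on the deposited scale. After cyclic loess both differences of ATF6 were above 0 (0.05 and 0.998), and after quantile normalization both were below 0 for ATF6B (-0.25 and -0.0083) and MBTPS1 (-0.52 and -0.03). ATF6 stood at 10.95 and 9.17 on the control arrays and at 10.93 and 10.34 on the PRSS8 arrays. Its difference was -0.03 within replicate 1 and 1.17 within replicate 2, with a mean of 0.57 (SE 0.95). Control replicate 2 stood 1.78 below control replicate 1, and the groups overlapped.

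ATF6B, the relative of ATF6 that is cut by the same proteases, stood at 7.31 and 7.36 on the control arrays and at 7.01 and 7.53 on the PRSS8 arrays. The differences were -0.30 and 0.17, with a mean of -0.07 (SE 0.50). Annotated with ATF6B and its older symbol CREBL1 were 3 further transcript clusters on alternative haplotypes, which the choice by 1 symbol left out. Their differences were -0.30 within replicate 1 and 0.16 to 0.17 within replicate 2, so the clusters gave near-equal values.

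The proteases that release these factors gave differences of both signs on the deposited scale. MBTPS1 (site-1 protease) stood at 9.14 and 8.32 on the control arrays and at 8.61 and 8.54 on the PRSS8 arrays, with differences of -0.53 and 0.22 and a mean of -0.16 (SE 0.68). MBTPS2 (site-2 protease) stood at 8.54 and 5.98 on the control arrays and at 8.18 and 6.70 on the PRSS8 arrays, with differences of -0.37 and 0.72 and a mean of 0.18 (SE 1.07). The control arrays of MBTPS2 were 2.56 apart and its PRSS8 arrays 1.47 apart, wider than either difference between the groups. The groups of both protease genes overlapped on the deposited scale, but after quantile normalization both PRSS8 arrays of MBTPS1 (8.39 and 8.62) stood below both controls (8.91 and 8.65).

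In the CREB3 family the 3 members differed among themselves. CREB3, also called Luman, stood at 8.16 and 9.34 on the control arrays and at 8.53 and 10.44 on the PRSS8 arrays. It was higher with PRSS8 by 0.37 within replicate 1 (1.29-fold) and by 1.09 within replicate 2 (2.14-fold), with a mean of 0.73 (SE 0.99). The groups overlapped because the replicate 2 arrays stood above the replicate 1 arrays, the reverse of EIF2AK3.

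CREB3L2, a factor known in mice for secretory genes of cartilage, stood at 6.52 and 5.91 on the control arrays and at 6.77 and 5.93 on the PRSS8 arrays. Its differences were 0.25 and 0.02 (mean 0.14, SE 0.48). Within replicate 2 the sign turned after quantile normalization (-0.05) and cyclic loess (-0.06). CREB3L1, a factor known in mice for collagen secretion in bone, stood at 3.39 and 3.58 on the control arrays and at 3.41 and 3.55 on the PRSS8 arrays. These values lie inside the range of the markers of other cells given above, and its differences were 0.02 and -0.02 (mean -0.0016, SE 0.14). Within replicate 2 the sign turned after each of the 3 normalizations (0.02 to 0.04). Detection could not be computed, so the small difference of CREB3L1 does not show that its mRNA was unchanged.

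Over the 10 genes, 4 were higher within both replicate numbers (XBP1, EIF2AK3, CREB3 and CREB3L2) and 0 were lower within both (2 after quantile normalization, ATF6B and MBTPS1). Among all genes 26.0% were higher and 24.5% lower within both numbers, and among genes above the median level, where 9 of the 10 members lie, 31.6% were higher. Higher within both were 5 members after quantile normalization, 5 after median centring and 6 after cyclic loess, where 30.6%, 31.7% and 30.1% of all genes were. The other 6 had opposite signs. Within replicate 1, 5 members were higher and 5 lower (median 0.0021), and within replicate 2, 9 were higher and 1 lower (median 0.33), where the medians of all genes were -0.0012 and 0.0090. The difference was larger within replicate 2 for 7 members. Shares of all genes for these counts within a single number were not computed, so the counts are not a result about the members. Within replicate 2, ATF6B (-0.0083), MBTPS1 (-0.03) and CREB3L2 (-0.05) fell below 0 after quantile normalization, and CREB3L1 rose above it (0.02). By arm, the count higher within both numbers was 1 of 2 for IRE1, 0 of 4 for ATF6, 1 of 1 for PERK and 2 of 3 for the CREB3 family. XBP1, EIF2AK3 and CREB3 were higher within both numbers under quantile, median-centring and cyclic loess normalization as well.

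**Figure D2:**
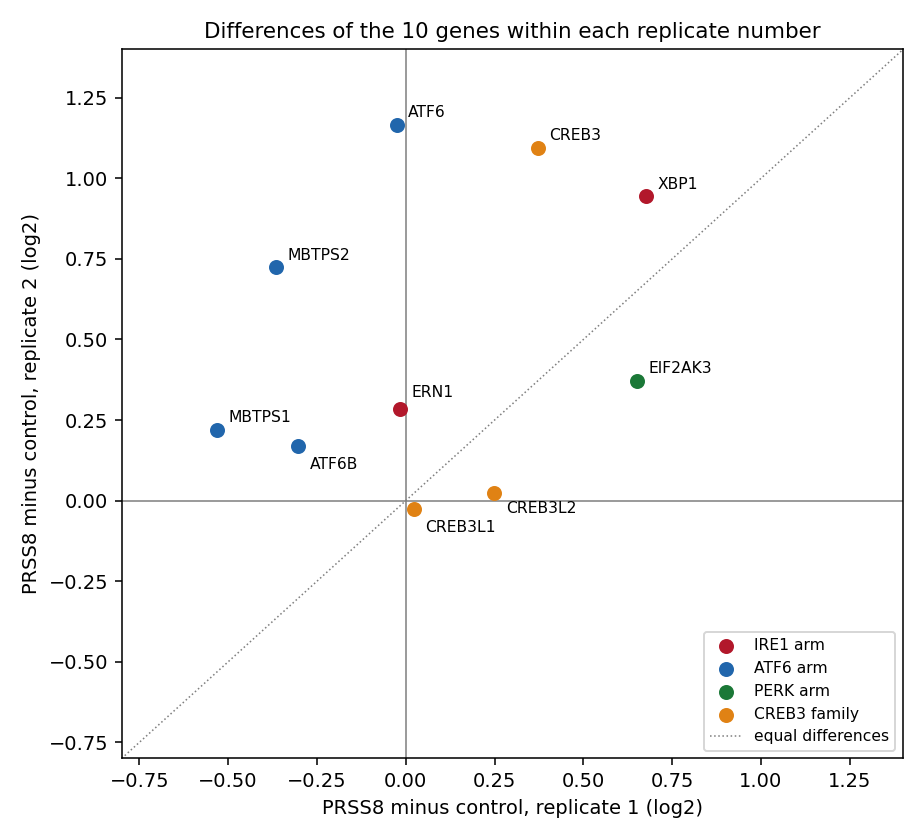
Difference PRSS8 minus control (log2) of the 10 genes within replicate 1 (x axis) and within replicate 2 (y axis), coloured by arm or family, with a dotted line where both are equal. XBP1, CREB3, EIF2AK3 and CREB3L2 lie in the upper right part, and the 4 genes of the ATF6 arm lie left of 0 on the x axis and above 0 on the y axis (after cyclic loess ATF6 lay right of 0, and after quantile normalization ATF6B and MBTPS1 lay below 0).

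In the limma test no member passed an adjusted p under 0.05, and 0.0% of the 22411 genes passed. The transfected gene PRSS8 did not pass either, with a mean difference of 7.49 (SE 0.57, unadjusted limma p 6.4e-05). Not passing this threshold therefore says little about the members. Each of the 10 members had an adjusted p of 1.0. At an unadjusted p under 0.05 there were 42 genes (17 higher, 25 lower), and 0 were members. For 6 of the 10 members the gap between replicate numbers, in each group, was larger than the mean difference between the groups. The replicate 1 arrays stood above the replicate 2 arrays in both groups for 6 members and below them for 4.

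The genes that these factors are known to control were taken as lists and set beside the members. The lists were not cleared of genes that answer several of the factors, so their medians do not rank the arms. Of 8 XBP1 targets, 8 were higher within both numbers, against the 26.0% of all genes given above, with a median difference of 0.47 within replicate 1 and 0.37 within replicate 2. In 3 of them both PRSS8 arrays stood above both controls (5.53% of all genes). That count was 3 after quantile normalization and cyclic loess (8.88% and 9.14% of all genes) and 0 after median centring (9.63%). DNAJC3, an ER co-chaperone that also inhibits PERK, had differences of 1.92 and 2.13, the largest of the list within both numbers. Its groups overlapped, with control replicate 1 at 9.61 and PRSS8 replicate 2 at 7.95. SEC61A1, the channel subunit through which proteins enter the ER, had 0.0024 and 0.36. Under each of quantile, median-centring and cyclic loess normalization 7 of the 8 were higher within both numbers, where 30.6%, 31.7% and 30.1% of all genes were.

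Of 8 measured ATF6 targets, 8 were higher within both numbers (26.0% of all genes), with medians of 1.77 and 1.67. In 7 of them both PRSS8 arrays stood above both controls (5.53% of all genes). That last count was 5 after quantile normalization (8.88% of all genes), 6 after median centring (9.63%) and 7 after cyclic loess (9.14%). HERPUD1, a part of ER-associated degradation, stood at 8.36 and 8.73 on the control arrays and at 12.02 and 12.25 on the PRSS8 arrays. The lectin chaperone calreticulin (CALR) had differences of 0.41 and 0.73. HSP90B1 was left out because its probe set carries several symbols. The median target of ATF6 differed by 1.77 within replicate 1, where ATF6 mRNA differed by -0.03 (0.05 after cyclic loess). Within replicate 2 the median target differed by 1.67 and ATF6 mRNA by 1.17. A relation between them was not tested.

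The 8 genes of PERK output, which ATF4 and its partners are known to induce, were all higher within both numbers (medians 0.35 and 0.83), against 26.0% of all genes. The 6 epithelial markers had medians of 0.14 and 0.83, with 4 of 6 higher within both, and their part in these differences was not tested. In all 8 genes of PERK output both PRSS8 arrays stood above both controls (5.53% of all genes), with a gap of 0.0125 at its narrowest. That count was 4 after quantile normalization (8.88% of all genes), 7 after median centring (9.63%) and 7 after cyclic loess (9.14%). DDIT3 (CHOP), a transcription factor of prolonged stress, stood at 6.37 and 5.97 on the control arrays and at 8.25 and 7.80 on the PRSS8 arrays. ATF4 itself had differences of 0.15 and 0.76. In limma 0 of 8 genes passed the adjusted threshold in each of the 3 lists, and 0 XBP1 targets, 1 ATF6 target (HERPUD1) and 1 gene of PERK output (DDIT3) had an unadjusted p under 0.05. The lists were drawn up with earlier results of these data known, and several of their genes had already been seen to be higher, so their counts are not independent evidence of direction.

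Partners and regulators of the sensors had differences of mixed sign. The 3 measured genes of the IRE1 partner list were MAP3K5, ERN2 and BLOC1S1, a mixed set, as ERN2 is itself a form of IRE1. Of the 3, 0 were higher and 0 lower within both numbers (26.0% and 24.5% of all genes), with medians of -0.14 and 0.14. After median centring and after cyclic loess 1 was higher within both (31.7% and 30.1% of all genes). MAP3K5 (ASK1), a kinase that acts downstream of IRE1, had differences of -0.72 and 0.14, and ERN2, the gut form of IRE1, had 0.10 and -0.05. The levels of ERN2 (3.46 to 3.64) lie inside the range of the markers of other cells. TRAF2 was not analysed here, and RTCB was left out because its probe set carries several symbols. Of 5 ATF6 cofactors, 3 were higher and 1 lower within both (26.0% and 24.5% of all genes). Among them NFYB, a subunit of NF-Y, had 0.30 and 0.42 and the factor GTF2I had -0.57 and -0.0021. After median centring 0 of the 5 were lower within both (17.52% of all genes).

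The other kinases of eIF2alpha were examined beside PERK. Of 5 genes of eIF2alpha and its control, 2 were higher and 1 lower within both numbers (26.0% and 24.5% of all genes). Their medians were -0.21 and 0.14. EIF2S1, which encodes eIF2alpha, had differences of 0.54 and 0.76. EIF2AK1, the heme-regulated kinase, had -0.22 and -0.13, while EIF2AK3 had 0.65 and 0.37. After quantile normalization 3 of the 5 were lower within both (21.95% of all genes), and after cyclic loess 2 (22.67%).

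The other known substrates of the site-1 and site-2 proteases stood lower with PRSS8. All 4 (SREBF1, SREBF2, CREB3L3 and CREB3L4) were lower within both numbers, with medians of -0.16 within each (24.5% of all genes were lower within both), and in 3 both PRSS8 arrays stood below both controls (5.56% of all genes). The levels of CREB3L3 (3.85 to 3.998) lie inside the range of the markers of other cells. Those of CREB3L4 (4.06 to 4.35) lie inside it only through DCN on control replicate 2, as every other marker value was 4.03 or lower. SREBF2, the main activator of cholesterol synthesis genes, stood at 6.70 and 6.76 on the control arrays and at 6.38 and 6.58 on the PRSS8 arrays (mean difference -0.25, SE 0.38). The 4 were lower within both numbers under each of the 3 normalizations too, but after quantile normalization 0 had separate groups and after median centring 1. In limma 0 of 4 passed the adjusted threshold, and 0 had an unadjusted p under 0.05.

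**Figure D3:**
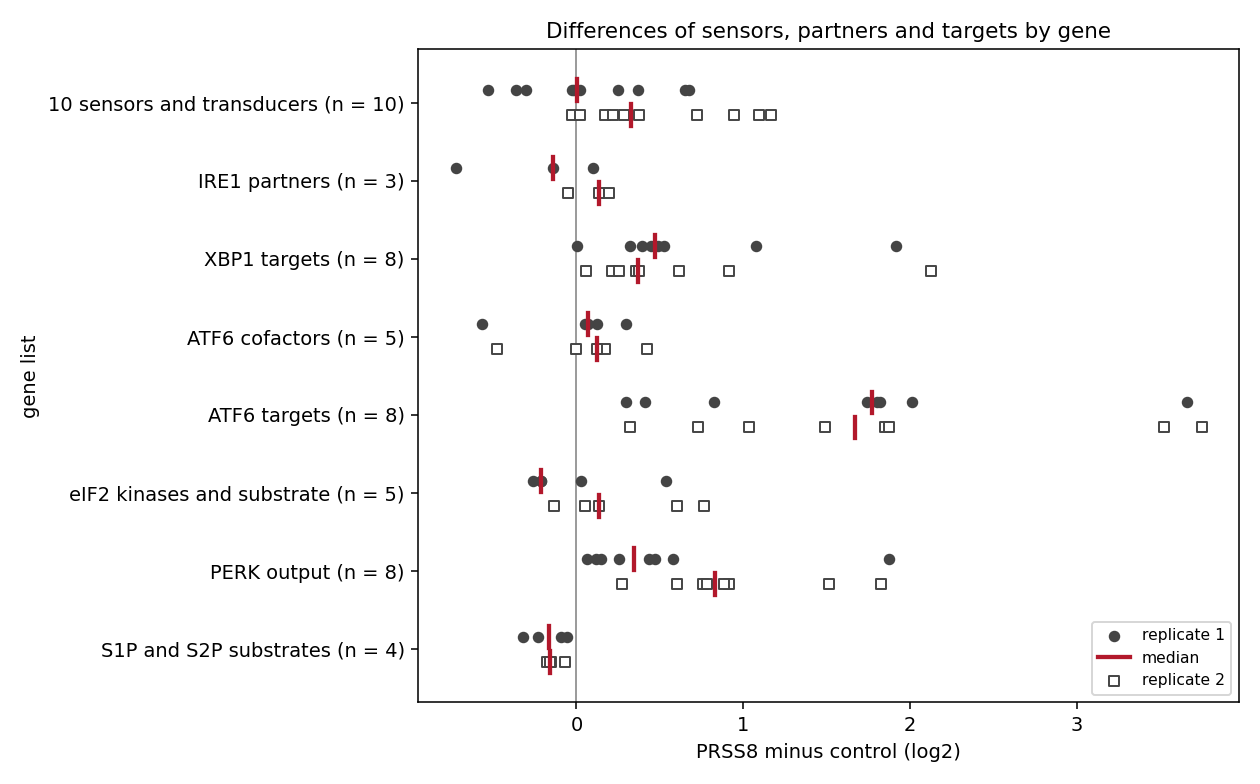
Difference PRSS8 minus control (log2, x axis) of each gene in the 10 sensors and transducers and in 7 lists of partners and targets (y axis), with filled circles for replicate 1, open squares for replicate 2 and red bars for medians. The XBP1, ATF6 and PERK target lists lie to the right of 0 within both numbers (7 of the 8 XBP1 targets after each of the 3 normalizations). The sensors and their partners lie on both sides of 0 within replicate 1. Within replicate 2, 9 of the 10 sensors and transducers lie to the right of 0 on the deposited scale.

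The element of the XBP1 window was then looked up in the target lists. Of the measured targets, HSPA5, CALR, CRELD2, PDIA6 and SERP1 held the full element. HERPUD1 and HYOU1 held a second form, searched as ATTGG, then 1 base of any kind, then CCACG, which 0.0541% of windows held (19 windows). The ATF6 target HSP90B1, left out above, held the full element at 2 places, which are not printed. Each match in XBP1 and in a measured target is given 5′ to 3′ on the strand where it reads in this order, with the fixed boxes in capitals, to show what XBP1 shares with them.
XBP1, chr22:28800603-28800621, minus strand: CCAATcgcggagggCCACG
HSPA5, chr9:125241391-125241409, minus strand: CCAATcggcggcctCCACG
CALR, chr19:12938384-12938402, minus strand: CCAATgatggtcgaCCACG
CRELD2, chr22:49918554-49918572, minus strand: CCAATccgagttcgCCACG
PDIA6, chr2:10812853-10812871, minus strand: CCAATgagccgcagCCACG
SERP1, chr3:150546710-150546728, plus strand: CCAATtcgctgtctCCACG
HERPUD1, chr16:56932025-56932035, plus strand: ATTGGgCCACG
HYOU1, chr11:119057380-119057390, plus strand: ATTGGaCCACG
HYOU1, chr11:119057274-119057284, plus strand: ATTGGaCCACG

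Apart from XBP1, 18 measured genes held the full element. Of these, 11 were higher and 2 lower within both numbers, with medians of 0.29 and 0.18. That is 61.1% higher, beside 26.0% of all genes, and the 18 include listed targets such as HSPA5, CALR and CRELD2. Of the 13 in no other list, 6 were higher and 2 lower within both, with medians of 0.21 and 0.04 (46.2% higher, beside 26.0% of all genes). Higher within both among these 13 were 6 after quantile normalization, 7 after median centring and 5 after cyclic loess. The shares of all genes were then 30.6%, 31.7% and 30.1%. Both strands were searched, so an element between neighbouring genes can count for both. The 13 were not cleared of genes that share an element with a listed target, so they are not a separate set. FICD, an enzyme that modifies BiP, was the gene of these 13 with the largest smaller difference, at 0.81 and 0.43. Of 17 genes with the second form, 11 were higher and 1 lower within both numbers, with medians of 0.07 and 0.38. That is 64.7% higher, beside the same 26.0% of all genes, and the 17 include the listed targets HERPUD1 and HYOU1. The other 15 were in no other list, and 9 were higher and 1 lower within both (60.0% higher). Of these 15, 11 were higher within both after quantile normalization, 10 after median centring and 11 after cyclic loess. Neighbouring genes that share an element were not merged here either.

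The genes whose profile over the 4 arrays lay closest to that of XBP1 were MED8, a Mediator subunit, the pseudogene MSTO2P and PLEK2, a pleckstrin family protein. Likeness was the Euclidean distance between mean-centred log2 values, taken over the other 22410 genes, and it was 0.06, 0.08 and 0.14 for these 3. MED8 had differences of 0.72 and 1.01, and PLEK2 had 0.53 and 0.82, beside 0.68 and 0.94 for XBP1. With 4 arrays such closeness is a description and says nothing of shared control.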

How the data were processed

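HCT116 cells were profiled on 4 Affymetrix arrays, 2 with empty vector and 2 with PRSS8 plasmid, grouped by the labels. The deposited values are log2 levels per probe set, made by the authors with Affymetrix Expression Console 1.3.1 and RMA, per the submitters' processing notes. No source used here says if RMA was run on the 4 arrays jointly. Scanner files were not used, so detection was not computed, and precision is limited by the number of arrays.

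Of 70523 probe sets, 67528 transcript clusters were kept, and 23781 of them had 1 symbol, updated through Entrez identifiers or unique older symbols. Each gene took its probe set of highest mean level (22411 genes). PRSS8 overexpression minus control was tested in R 4.3.3 with limma 3.58.1 (lmFit, eBayes with trend, two-sided, Benjamini-Hochberg over all genes, threshold 0.05), and the code was tested on simulated data. Members, lists and tests were chosen with earlier results of these data known. Named were the 10 members, PRSS8 and, per list, the gene of highest level, the gene whose smaller difference within a number was largest and, where below 0 in both, the gene whose larger difference was smallest. Targets holding a response element, BLOC1S1, SREBF1, CREB3L3, CREB3L4 and genes left out were named beside that rule. Alternatives were 2 variance models, 3 normalizations, a level filter, other probe set rules, a replicate block and leaving out each array.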

Additional observations from a re-analysis of the deposited data

How the results depend on the processing

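The count of genes past the limma threshold was 0 under the other variance models, the normalizations, the level filter, both probe set rules and the replicate block, and 0 to 62 with an array left out (62 without control replicate 1, 8 without control replicate 2, none of them members). Such fits also carry the difference between replicate numbers. Genes with separate groups numbered 2485, against 3524 after quantile normalization, 3360 after median centring and 3722 after cyclic loess (the share above both controls went from 5.53% to 8.88%, 9.63% and 9.14%), 1156 among genes above the median level (fewer genes tested) and 8950 with every transcript cluster as its own entry (more entries tested). Alternatives for the members' counts were added after seeing the data: members lower within both numbers went from 0 to 2 and members below both controls from 0 to 1 after quantile normalization. The signs of the members' mean differences held under the other settings without leaving out an array, except for CREB3L1, at -0.0016 on the deposited scale, 0.017 after quantile normalization, 0.029 after median centring and 0.019 after cyclic loess. With each array left out in turn, XBP1 kept its sign (0.48 to 1.14), and the others took either sign: ERN1 -0.038 to 0.31, ATF6 -0.32 to 1.46, ATF6B -0.33 to 0.20, MBTPS1 -0.57 to 0.26, MBTPS2 -1.10 to 1.46, EIF2AK3 -0.27 to 1.298, CREB3 -0.22 to 1.69, CREB3L1 -0.095 to 0.092 and CREB3L2 -0.29 to 0.56. Medians were 0.14 to 0.65 for XBP1 targets, 0.98 to 2.37 for ATF6 targets and 0.31 to 0.92 for PERK output with an array left out, lowest without control replicate 2 for the first 2 and without PRSS8 replicate 2 for the third. With only 2 numbers and no label that ties them to a shared day or culture, the numbers are not shown to pair the arrays, although the replicate 1 minus 2 differences of control and PRSS8 arrays correlated at 0.910 across genes. With the replicate number as a block, 0 genes passed (1174 at an unadjusted p under 0.05, or 5.24%), 3 members had an unadjusted p under 0.05 (XBP1 0.0073, EIF2AK3 0.020, CREB3 0.048, each with an adjusted p of 0.94), and the means were unchanged. The cause of each shift was not tested.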
